A study of Mus musculus with 2 samples.

Results

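Microglia are the resident macrophages of the retina. In the undisturbed tissue they carry a homeostatic program of surface receptors and sensors, among them P2ry12, Tmem119 and Siglech, and under injury they can lower it and turn on lipid, lysosomal and inflammatory genes. Dissociation and sorting can themselves switch on cytokine and early stress genes in these cells, so a comparison of control with diseased tissue can also be read in the cells that carry least of both. The cells described here are homeostatic microglia of the mouse retina that were low in 3 cytokine-response genes and in 4 stress genes for their own library.

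The study set retinas of mice raised in room air (RA) beside retinas of mice with oxygen-induced retinopathy (OIR), a model in which a spell of high oxygen in newborn pups is followed by pathological growth of retinal vessels. All mice were C57BL/6j and were taken at postnatal day 17, retinas were pooled within each condition, and cells positive for both CD11b and F4/80 were sorted and captured with 3′ single-cell chemistry. Each condition is 1 library, with 1449 barcodes in RA and 1259 in OIR. There is therefore no replicate of either condition, no test was possible, and every interval given is a 95% counting interval that covers counting error only.

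Members were selected on measured values. A base cell had at least 4000 transcripts counted by unique molecular identifier (UMI), at most 20% mitochondrial UMIs, at least 1 UMI each of Malat1, P2ry12, Tmem119 and Siglech, and at most 1 UMI in all of Mrc1, Pf4, Top2a and Mki67, which mark other macrophages and dividing cells. There were 699 base cells in RA (48.2% of barcodes, exact binomial interval 45.6 to 50.8) and 285 in OIR (22.6%, 20.4 to 25.1). A member lay below the base median of its own library both for the summed UMIs of Il1b, Tnf and Ccrl2 per total UMI (the cytokine score) and for those of Rrad, Ddit3, Sertad1 and Ier5 (the stress score). This left 118 RA cells and 58 OIR cells, 176 of 2708 barcodes in all. They were 16.9% of RA base cells (14.2 to 19.9) and 20.4% of OIR base cells (15.8 to 25.5), shares that the choice of medians largely sets. No barcode was shared between the libraries. The members held 1338881 UMIs in RA and 641195 in OIR, with medians of 11357 and 9970 UMIs per cell and 3017 and 2913 genes per cell.

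The limits differed between the libraries. The base median of the cytokine score was 2541 UMIs per 1000000 UMIs of the cell (CPM) in RA and 4956 CPM in OIR, and that of the stress score was 1846 CPM in RA and 1335 CPM in OIR. The median OIR member had a cytokine score of 2813 CPM, above the RA limit, against 1161 CPM for the median RA member. The label "low in cytokines" thus holds within each library and not on a common scale. The median stress score was 1276 CPM in RA members and 844 CPM in OIR members. Just inside and outside the cytokine limit lay cells at 2500 and 2541 CPM in RA and at 4835 and 4956 CPM in OIR, and for the stress score at 1831 and 1846 CPM and at 1326 and 1335 CPM. Within 10% of the cytokine limit lay 8 RA and 10 OIR members, and within 10% of the stress limit 18 RA and 10 OIR members. Over base cells both scores ran against each other, with Spearman coefficients of -0.42 over 699 RA cells and -0.24 over 285 OIR cells, given as a description of cells that share a library and a total.

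**Figure D1:**
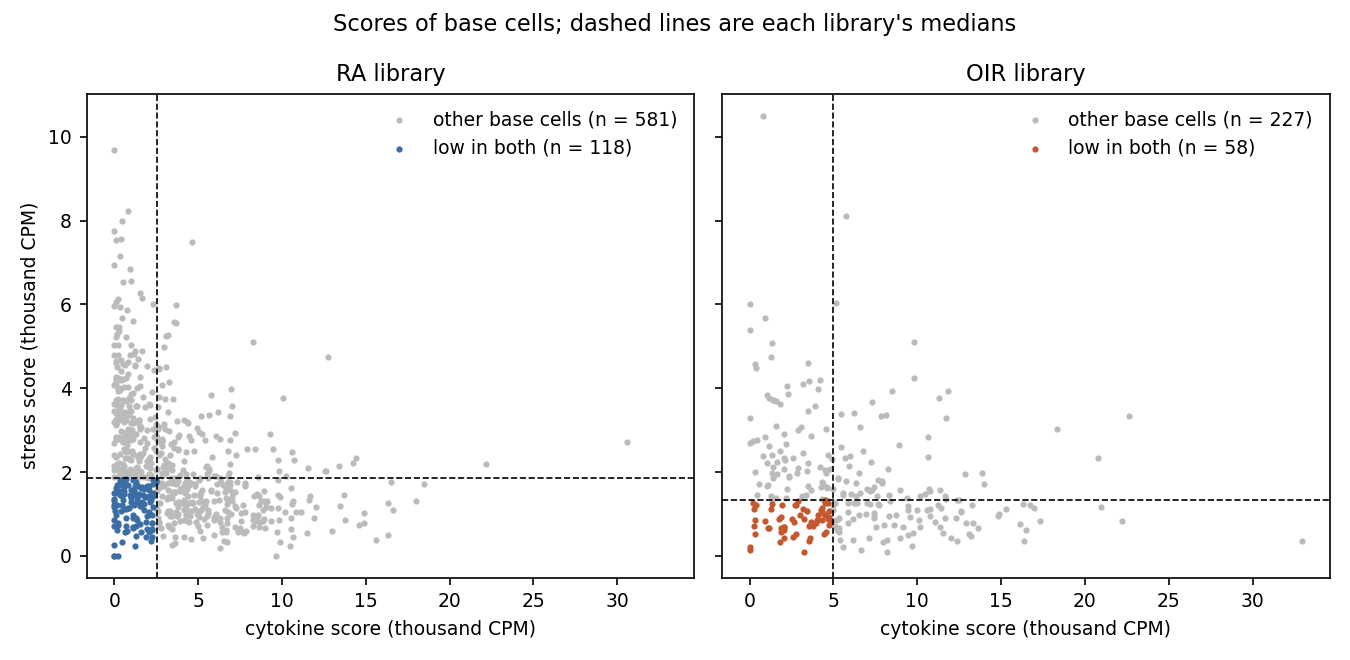
Cytokine score (x axis) against stress score (y axis), both in units of 1000 CPM, of each base cell, 1 panel per library, with members in colour and the other base cells in grey. The dashed medians sit further right and lower in OIR than in RA, so that OIR members reach higher cytokine scores than RA members.

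The genes of the rule are a description of that choice. Il1b, an inflammatory cytokine, stood at 240 CPM in RA members and 951 CPM in OIR members. Ccrl2, an atypical chemoattractant receptor, stood at 329 and 961 CPM, and Tnf at 683 and 920 CPM. Tnf was lower in OIR when both libraries were divided at pooled medians (log2 ratio of OIR over RA -0.38). The stress genes were lower in OIR members, Rrad at 149 and 65.5 CPM, Ddit3 with 81 and 16 UMIs, Sertad1 at 97.1 and 60.8 CPM and Ier5 at 911 and 666 CPM. Malat1, a nuclear noncoding RNA, was at 18482 CPM in RA and 5856 CPM in OIR, and it was lower in OIR in each of the other groups of cells compared here as well, for example at 45751 and 22805 CPM in rods.

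The cells carried the markers of homeostatic microglia that the rule had not used. Each cell was thinned to 4000 UMIs to compare shares of cells at equal depth. Sparc, a matricellular protein abundant in microglia, had a UMI in 100% of thinned members of both libraries and stood at 3523 CPM in RA and 3589 CPM in OIR. Cd81, a tetraspanin, was also in 100% of thinned members, at 2602 CPM in RA and 3681 CPM in OIR. Serpine2, a protease inhibitor, was in 85.6% of RA members and 72.4% of OIR members after thinning (98.3% and 100% without), at 516 and 499 CPM. In rods of the same libraries, a cell type that should lack it, Serpine2 had a UMI in none of the RA cells and 0.478% of OIR cells without thinning, at median depths of 1644 and 1171 UMIs. Sparc had a UMI in 6.42% of RA rods and 4.31% of OIR rods. Cd81, which other retinal cells also carry, had one in 36.8% and 41.6% of rods, at 184 and 326 CPM. Csf1r, the receptor on which microglia depend for survival, was at 2509 CPM in RA members and 2027 CPM in OIR members. The label of homeostatic microglia therefore holds by these markers in both libraries.

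The marker lists of other cell types were summed over members. The 16 rod genes summed to 1335 CPM in RA members and 376 CPM in OIR members, and 1327 of the 1788 RA UMIs (74.2%) came from a single cell. In OIR, Gnb1, a widely expressed gene, held 192 of the 241 UMIs. Gngt1, Pde6b, Nrl, Nr2e3 and Cnga1 were at 0 in OIR members. The border macrophage list summed to 79.9 CPM in RA and 156 CPM in OIR, mostly Stab1, with Cd163, F13a1, Lyve1, Ms4a7 and Ccl8 at 0 in both libraries. The monocyte list summed to 132 and 226 CPM, led by Plac8 in RA and by Ms4a6c in OIR, with Cd209a at 0 in both and Ccr2 and Ly6c2 at 0 in OIR, and a single cell held 50 of the 177 RA UMIs and another 48 of the 145 OIR UMIs. The Müller glia or astrocyte list was at 663 and 697 CPM, nearly all Glul, and the lens list at 123 and 221 CPM, mostly Cryba4, with 59 of its 142 OIR UMIs in 1 cell. Cone genes summed to 194 and 137 CPM, nearly all Gngt2, with Arr3 and Gnat2 at 0 in both. Bipolar, amacrine and ganglion cell genes summed to 62.0 and 48.3 CPM, endothelial genes to 29.1 and 17.2 CPM, pericyte genes to 0.747 and 7.80 CPM and erythrocyte genes to 7.47 and 1.56 CPM. Neutrophil and lymphocyte genes had 2 UMIs each in RA members and 0 in OIR members, where a count of 0 allows up to 3 UMIs, or 4.68 CPM.

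For the comparison of OIR with RA, UMIs were summed over members of each library and the log2 ratio of CPM was taken for 4788 genes with a mean of at least 25 CPM, leaving out the rule genes. The median ratio was 0.06. In OIR members 274 genes were higher by 2-fold or more (5.72% of those compared) and 308 were lower by 2-fold or more (6.43%). When each gene's highest cell was left out in each library, 257 were higher and 355 lower. Ribosomal protein genes made up 47 of the 308 lower genes, out of 79 compared. None of these counts comes with a replicate.

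Among the genes furthest above 0 was Lyz2, the lysozyme of macrophages. It had 3 UMIs in 2 of 118 RA members and 422 UMIs in 44 of 58 OIR members, or 2.24 and 658 CPM, a log2 ratio of 8.20 (6.64 to 10.48). After thinning, no RA member and 41 OIR members had a Lyz2 UMI. The whole RA library was low in this gene. Lyz2 had 54 UMIs over all 1449 RA barcodes and 13765 over the 1259 OIR barcodes, 20.3 against 2124 CPM in cells marked by Mrc1 or Pf4, 18.6 against 4956 CPM in cells marked by the monocyte genes Ccr2, Ly6c2 or Plac8, and 0 against 6.74 CPM in rods. The near absence in RA thus held in macrophage-marked and monocyte-marked cells too. The monocyte mark did not exclude base cells, so that group can share cells with members. The labels name no allele at Lyz2 for either library, whether the mice differed at this locus was not tested, and the ratio cannot be assigned to OIR.

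Other genes far above 0 followed. Tnfsf9, the ligand of a T cell costimulatory receptor, was at 6.72 CPM in RA and 92.0 CPM in OIR (log2 3.77, 2.75 to 4.97), in 4 and 12 cells. Spp1, osteopontin, was at 6.72 and 67.1 CPM (log2 3.32, 2.26 to 4.54), in 4 RA and 13 OIR cells. Hcar2, a receptor for ketone bodies and niacin, was at 18.7 and 159 CPM (log2 3.09, 2.45 to 3.78), and Vim, the intermediate filament vimentin, at 23.9 and 195 CPM (log2 3.03, 2.46 to 3.64). Vim had UMIs in 15 RA and 25 OIR members before thinning. In rods it was at 20.3 CPM in RA and 53.9 CPM in OIR, with UMIs in 4.39% and 8.61% of cells. The level in RA members was thus near that in RA rods. Most members of both libraries had no UMI of Tnfsf9, Spp1 or Vim, and in OIR the counts of these genes came from a minority of cells.

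Rab7b, a small GTPase of the late endosome, was at 8.22 CPM in RA and 76.4 CPM in OIR (log2 3.22, 2.25 to 4.31). Cd72, a C-type lectin receptor, was at 37.3 and 173 CPM (log2 2.21, 1.72 to 2.72), in 28 and 41 cells. Lgals3, galectin-3, was at 36.6 and 159 CPM (log2 2.12, 1.61 to 2.64). It had UMIs in 7 of 118 RA and 17 of 58 OIR members, with 23 of the 49 RA UMIs in 1 cell. The regulator of G protein signalling Rgs1 was at 115 and 494 CPM (log2 2.10, 1.82 to 2.39), and Cxcl2, a neutrophil chemokine, at 249 and 965 CPM (log2 1.95, 1.76 to 2.15). Cxcl2 had UMIs in 16 RA and 25 OIR members, with a single cell of each library holding 92 of them. The ferritin pseudogene Ftl1-ps1 was at 24.6 and 150 CPM (log2 2.60, 2.02 to 3.22), and reads of such a copy may come from the parent gene Ftl1, which was at 6207 and 11260 CPM (log2 0.86, 0.81 to 0.91).

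2 of the largest ratios rested on single cells. Lyz1, a close paralog of Lyz2 whose reads the counting may not separate, had 104 of its 105 OIR UMIs in 1 cell, for a log2 ratio of 5.78, and leaving out the highest cells left 3 UMIs in RA and 1 in OIR, too few for a ratio. A Lyz1 count of 104 was also the highest among OIR cells that carried the monocyte mark. Fn1, fibronectin, had no UMI in RA members and 53 in OIR members, at least 36.9-fold higher with the RA floor set at 3 UMIs, and 40 of the 53 were in 1 cell.

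**Figure D2:**
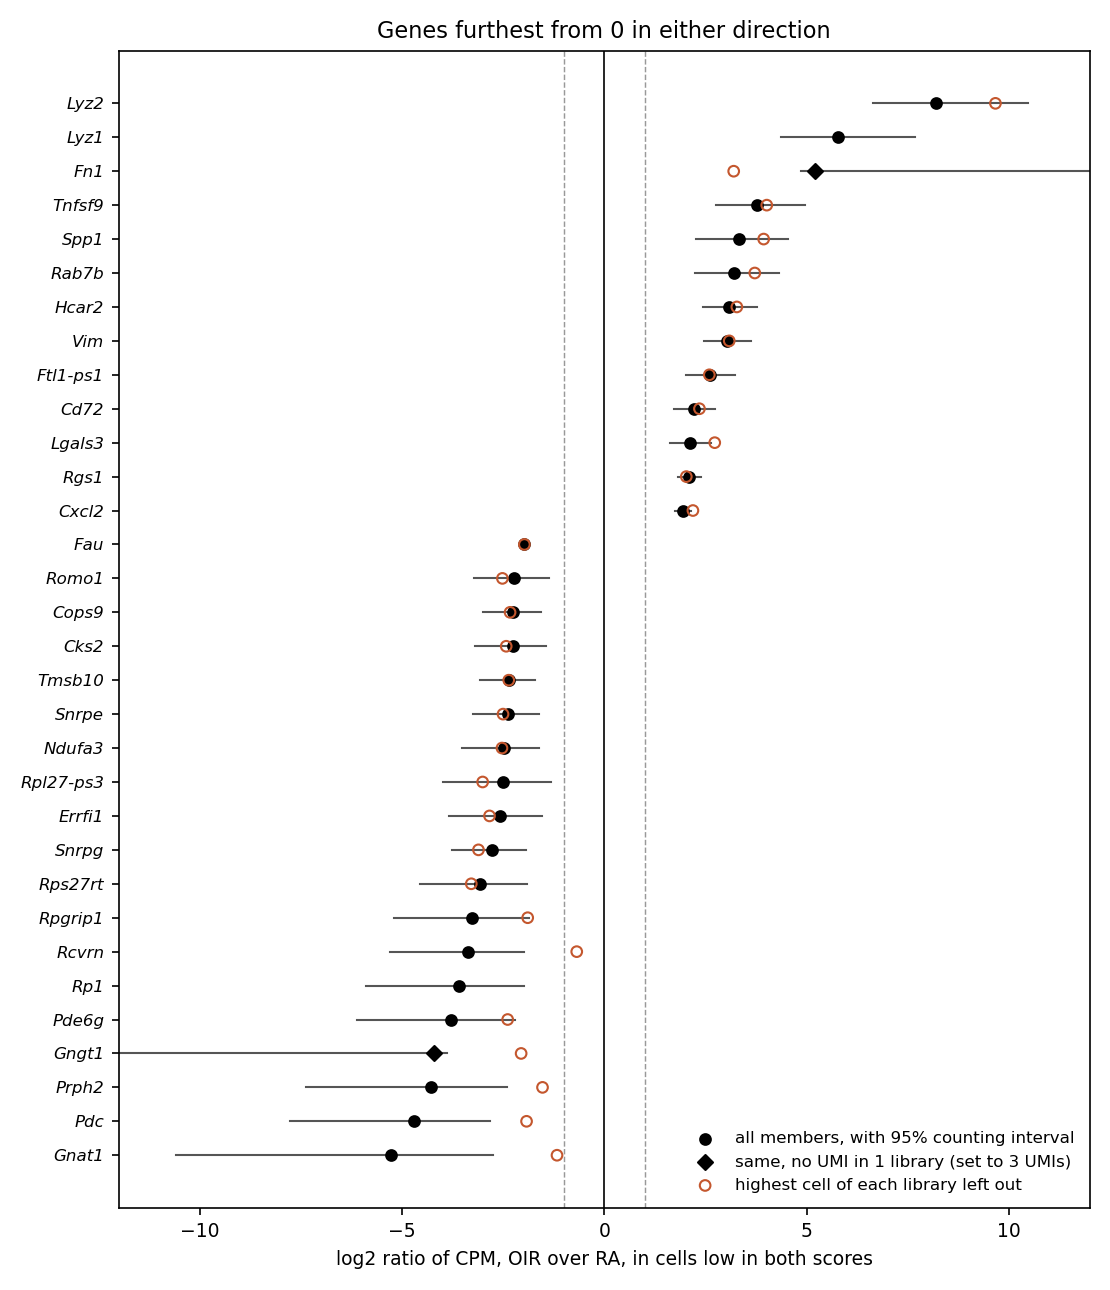
Log2 ratio of CPM, OIR over RA, in members (x axis) for the genes furthest from 0 by the nearer bound of their counting interval, with the interval as a line and open circles for the ratio without the highest cell of each library. Lines that reach the edge of the plot have no outer bound. Lyz1 and Rp1 have no open circle because too few UMIs were left, and most other rod genes at the bottom, and Fn1 at the top, lie nearer to 0 when the highest cell is left out.

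Furthest below 0 were rod genes. Rp1, a rod microtubule protein, had 75 UMIs in RA and 3 in OIR, with 73 of the RA UMIs in 1 cell, for a log2 ratio of -3.58, and leaving out the highest cells left 2 UMIs in each library, too few for a ratio. Gngt1, a transducin subunit, had 116 UMIs in RA and 0 in OIR, at least 18.5-fold lower, and 90 of the 116 were in 1 cell. Members in the lowest tertile of each score had too few UMIs of either gene to give a direction.

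The other genes far below 0 were mostly those of small proteins with short transcripts. Snrpg, a spliceosome core protein, was at 128 CPM in RA and 18.7 CPM in OIR (log2 -2.78, -3.76 to -1.94), and Snrpe at 121 and 23.4 CPM (log2 -2.37, -3.24 to -1.61). Fau, which encodes a ribosomal protein fused to a ubiquitin-like domain, was at 4875 and 1240 CPM (log2 -1.98, -2.08 to -1.87). Tmsb10, an actin-binding thymosin, was at 167 and 32.8 CPM (log2 -2.35, -3.07 to -1.71), while its relative Tmsb4x was at 23446 and 26973 CPM (log2 0.20, 0.18 to 0.23). Cops9, of the COP9 signalosome, Romo1, of the mitochondrial inner membrane, and Cks2, a cell cycle kinase subunit, were lower by log2 2.22 to 2.26. Errfi1, an inhibitor of epidermal growth factor signalling with a transcript of 3043 bases, was at 74.7 and 12.5 CPM (log2 -2.58, -3.83 to -1.55).

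Transcript length moved with the ratio. Of the 4788 genes, 4710 (98.4%) had an annotated protein-coding transcript. In members the median log2 ratio was -1.65 for the 42 genes whose longest transcript was under 500 bases, -0.01 for 346 genes from 500 to under 1000 bases, 0.42 for 1097 genes from 1000 to under 2000, 0.11 for 1782 genes from 2000 to under 4000 and -0.20 for 1443 genes of 4000 or more. Of the shortest class 73.8% were lower by 2-fold or more. The same class had a median of -1.43 in base cells high in the cytokine score only, -1.61 in those high in the stress score only, -1.58 in those high in both, -1.66 in cells marked by Mrc1 or Pf4 and -1.92 in rods. The difference between the libraries by transcript length was thus present in cells of other types, and its cause was not tested.

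**Figure D3:**
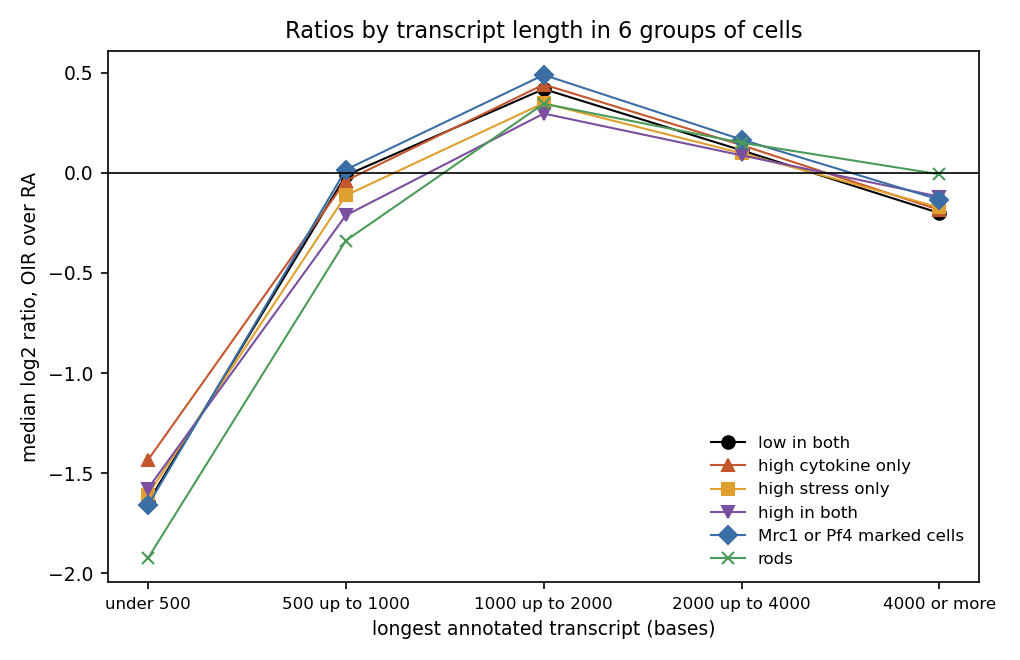
Median log2 ratio of CPM, OIR over RA (y axis), of genes in 5 classes of longest annotated transcript (x axis) for members and 5 other groups of cells of the same libraries. In the shortest class the medians lie between -1.92 and -1.43.

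Ribosomal protein genes summed to 145442 CPM in RA members and 82783 CPM in OIR members. Their median log2 ratio was -1.26, with 47 of 79 lower by 2-fold or more and 0 higher. In rods and in cells marked by Mrc1 or Pf4 the medians were -1.24 and -1.22. Their longest transcripts had a median of 860 bases, with 10 of 77 under 500, whereas the 305 other genes of 500 to under 1000 bases had a median log2 ratio of 0.06. Without ribosomal protein genes the shortest class stood at -1.47 over 32 genes. The 75 nuclear genes of the respiratory chain had a median of -0.36, with 25 lower by 2-fold or more (33.3%, against 6.43% of all genes) and 4 higher (5.33%, near the 5.72% of all genes). Their longest transcripts had a median of 908 bases, with 7 of 75 under 500. Of all genes from 500 to under 1000 bases 19.7% were lower by 2-fold or more. Among the lower genes of the list were Ndufa3, a subunit of complex I with a transcript of 476 bases (log2 -2.49, -3.53 to -1.60), and Uqcrh, of complex III, with 547 bases (log2 -1.79, -2.16 to -1.44). Ndufa3, Ndufb2 and Ndufb3 were under 25 CPM in OIR and passed the minimum through RA, so they could not count as higher. The 4 higher ones were Sdhd and Sdhb of succinate dehydrogenase, Ndufv2 of complex I and Atp5c1 of ATP synthase, with log2 ratios of 1.51, 1.21, 1.16 and 1.08 and transcripts of 1142 to 1735 bases. The 13 mitochondrially encoded genes had a median of 0.02, with 3 lower by 2-fold or more (23.1%). Of the 13, 3 had transcripts under 500 bases, the class in which 73.8% of all genes were lower. The sum of the 13 was higher in OIR, at 45513 CPM in RA and 53302 CPM in OIR (log2 0.23, 0.21 to 0.25).

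Glycolysis genes were higher in OIR members. Of the 16 compared, 6 were higher by 2-fold or more (37.5%, against 5.72% of all genes) and 1 was lower (6.25%, near the 6.43% of all genes). Of the 16, 15 lay above 0, with a median log2 ratio of 0.85. Their sum was 3299 CPM in RA and 6744 CPM in OIR (log2 1.03, 0.97 to 1.09). Gapdh, which oxidises glyceraldehyde 3-phosphate, was at 689 CPM in RA and 2236 CPM in OIR (log2 1.70, 1.58 to 1.82). After thinning, the RA members had 0 to 9 Gapdh UMIs with a median of 2 and the OIR members 1 to 35 with a median of 7, so that the ranges overlapped. Pgam1, phosphoglycerate mutase, was at 125 and 331 CPM (log2 1.41, 1.11 to 1.71), Eno1, enolase, at 133 and 334 CPM (log2 1.33, 1.03 to 1.62) and Pgk1, phosphoglycerate kinase, at 92.6 and 206 CPM (log2 1.15, 0.79 to 1.52). The exception was Hk2, the inducible hexokinase that starts the pathway, at 278 and 106 CPM (log2 -1.39, -1.78 to -1.01).

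The sum of the list was also higher in OIR in other cells. Its ratio was log2 1.20 in base cells high in the cytokine score only, 0.94 in those high in the stress score only and 1.04 in those high in both, and the members' value differed from these by -0.17 (-0.24 to -0.09), 0.09 (0.01 to 0.17) and -0.0044 (-0.09 to 0.08). In cells marked by Mrc1 or Pf4 the sum was higher by log2 1.06, and in rods by 0.76. Pgk1 was log2 1.15 in members against 2.07, 1.80 and 2.13 in the other 3 groups of base cells. Gapdh had its largest ratio in members, at 689 CPM in RA and 2236 CPM in OIR. In the other 3 groups it was at 743 and 2216 CPM, 630 and 1489 CPM and 690 and 1667 CPM. The hypoxia response list holds sensors and regulators of the oxygen-sensing pathway beside its targets, and it shares Slc2a1 and Tpi1 with the glycolysis list. Its median was 0.04 over 18 genes of 39 listed. The others, among them Vegfa, Adm and Car9, lay below the minimum of 25 CPM. The list had 2 genes higher by 2-fold or more (11.1%, against 5.72% of all genes) and 1 lower (5.56%, near the 6.43% of all genes). Its sum stood at log2 -0.02 (-0.13 to 0.09) in members and at 0.33, 0.25 and 0.29 in the other groups of base cells, differences of -0.34 (-0.47 to -0.21), -0.27 (-0.41 to -0.12) and -0.30 (-0.45 to -0.15) that have no replicate. Its higher genes were Plin2, which coats lipid droplets, at 53.0 and 168 CPM, and Anxa2, a membrane-binding annexin, at 25.4 and 87.3 CPM, and the lower one was Kdm3a, a histone demethylase, at 41.1 and 20.3 CPM. Kdm3a was under 25 CPM in OIR and passed the minimum through RA, so it could not count as higher.

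The promoters of Gapdh and Pgam1, the 2 glycolysis genes with the highest ratios, are shown as a description. They run from 250 bases before to 50 bases after the transcription start, from RefSeq on GRCm38.p6. Capitals mark the letters ACGTG, read on either strand (CACGT on the strand shown in Gapdh), which form the core of the hypoxia response element and also lie within the CACGTG box.

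Gapdh, chr6:125165724-125166023, minus strand: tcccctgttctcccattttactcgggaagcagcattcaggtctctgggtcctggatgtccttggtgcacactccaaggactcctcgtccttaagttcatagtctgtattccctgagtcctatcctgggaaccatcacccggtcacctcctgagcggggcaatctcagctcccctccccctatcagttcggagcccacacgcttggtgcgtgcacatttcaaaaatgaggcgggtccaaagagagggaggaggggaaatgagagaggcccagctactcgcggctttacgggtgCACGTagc

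Pgam1, chr19:41911621-41911920, plus strand: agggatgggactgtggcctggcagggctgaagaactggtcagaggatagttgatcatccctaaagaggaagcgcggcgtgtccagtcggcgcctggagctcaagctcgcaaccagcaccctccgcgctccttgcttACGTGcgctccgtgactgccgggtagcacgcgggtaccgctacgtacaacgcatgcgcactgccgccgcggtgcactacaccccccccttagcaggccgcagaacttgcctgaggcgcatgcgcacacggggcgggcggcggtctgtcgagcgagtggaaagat

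The match began at base 293 of the Gapdh window and at base 137 of the Pgam1 window, and the 3 windows listed for Eno1 held none. Counting a gene once if any of its listed windows held the letters, so that genes with several windows had more chances, 11 of 16 glycolysis genes (68.8%) had a match. The share was 31.3% of the 3820 compared genes with a window and 21.8% of all 27025 genes with one, and 19.6% of all 32851 windows. A match in a window is a description of its letters, and whether it bears on the ratios was not tested.

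Genes associated with microglial activation were higher in OIR members as well. Of 31 compared genes of the disease-associated list, 11 were higher by 2-fold or more (35.5%), 0 were lower and 26 lay above 0, with a median log2 ratio of 0.96; of all genes 5.72% were higher. The median longest transcript of the list was 1441 bases, and of all genes of 1000 to under 2000 bases 12.7% were higher, with a median of 0.42. Lyz2, low in the whole RA library, is 1 of the 11. Lyz2, Spp1 and Igf1 were under 25 CPM in RA and passed the minimum through OIR, so they could not count as lower. The sum was 48648 CPM in RA and 68135 CPM in OIR (log2 0.49, 0.47 to 0.50), and at log2 0.21 when transcripts under 1000 bases were left out. Beside Lyz2, Spp1 and Lgals3 these included Igf1, a growth factor, at 23.2 and 88.9 CPM (log2 1.94, 1.29 to 2.62), Csf1, the ligand of Csf1r, at 44.8 and 161 CPM (log2 1.84, 1.37 to 2.33), Fabp5, a fatty acid carrier, at 37.3 and 108 CPM, and Lpl, lipoprotein lipase, at 104 and 270 CPM (log2 1.38, 1.05 to 1.71). Igf1 had 21 of its 57 OIR UMIs in 1 cell and was present in 19 RA and 16 OIR cells. Apoe, the main lipid carrier of microglia, went the other way at 20353 and 17976 CPM (log2 -0.18, -0.21 to -0.15). Cd52, a short glycoprotein with a transcript of 514 bases, was at 710 and 356 CPM. The list's median was 0.95 in base cells high in the cytokine score only, 0.73 in those high in the stress score only and 0.58 in those high in both.

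The lysosomal genes were widely higher, with 42 of 50 above 0 and a median of 0.49. Their sum was 42884 CPM in RA and 64007 CPM in OIR (log2 0.58, 0.56 to 0.60). Higher by 2-fold or more were 3 (6%, near the 5.72% of all genes), the cathepsin Ctsh at 587 and 1221 CPM and the glycosidases Hexa at 450 and 933 CPM and Gusb at 235 and 483 CPM, and 0 were lower. Ctsb, cathepsin B, was at 1583 and 3141 CPM (log2 0.99, 0.90 to 1.08), with a thinned median of 6 UMIs per cell in RA and 11 in OIR. The sum of the list differed from that in the other 3 groups of base cells by 0.06, 0.03 and 0.12.

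Phagocytic and Fc receptors had a median of 0.48 over 27 genes, with 3 higher by 2-fold or more (11.1%, against 5.72% of all genes), Fcgr4, an activating Fc receptor, at 32.9 and 96.7 CPM, the inhibitory receptor Lilrb4a at 19.4 and 56.1 CPM and Gas6, a bridge to apoptotic cells, at 142 and 310 CPM. C1qb, a complement subunit, was at 5969 and 10421 CPM (log2 0.80, 0.76 to 0.85), while the signalling adaptors Tyrobp and Fcer1g, with transcripts of 564 and 674 bases, were at 2344 and 1257 CPM and at 1849 and 1290 CPM. MHC class I genes had a median of 0.60 over 12 genes, with 3 higher by 2-fold or more (25%) and 0 lower, and a median longest transcript of 1605 bases, in the length class whose genes had a median of 0.42. Among the higher ones H2-D1, a classical class I chain, was at 869 and 1882 CPM, and the common subunit B2m was at 1673 and 1778 CPM. Of 24 iron and antioxidant genes, 3 were higher (12.5%) and 1 lower (4.17%, near the 6.43% of all genes), with a median of 0.40. Slc7a11, the cystine importer, was at 21.7 and 109 CPM (log2 2.33, 1.69 to 3.01), Prdx1, a peroxidase, at 292 and 721 CPM (log2 1.30), and Nfe2l2, the transcription factor that controls both, at 232 and 515 CPM (log2 1.15, 0.92 to 1.38). The ratio of Nfe2l2 exceeded that in the other groups of base cells by 0.64 (0.37 to 0.91), 0.46 (0.15 to 0.77) and 0.60 (0.28 to 0.93), differences for which there is no replicate. Mt1, a metallothionein, was the lower gene, at 440 and 167 CPM. Slc7a11, also counted in the integrated stress response below, and Lilrb4a were under 25 CPM in RA. Both passed the minimum through OIR, so they could not count as lower.

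The homeostatic list was read only in cells chosen for that program. Of cells past the depth and mitochondrial limits, 756 of 974 in RA and 389 of 723 in OIR had a UMI of all 4 genes that the rule required. Cells lacking at least 1 of Malat1, P2ry12, Tmem119 and Siglech were thus left out, a larger share in OIR. Which of the 4 was missing is not given here, and leaving out the rule genes does not undo this choice. How far that choice set the values below was not tested. Without the rule genes, its 49 genes summed to 86604 CPM in RA and 93018 CPM in OIR (log2 0.10, 0.09 to 0.12), with a median ratio of -0.15 and 20 genes above 0, so that sum and median differed in sign. Under the alternatives the sum lay between 0.0084 and 0.18. In this list 0 genes were higher and 1 lower by 2-fold or more (2.04%, against 6.43% of all genes). The lower one was Cx3cr1, the fractalkine receptor, at 2129 and 883 CPM (log2 -1.27, -1.40 to -1.14), with 1 to 40 UMIs per thinned cell and a median of 8 in RA and 0 to 10 with a median of 3 in OIR. It was lower by log2 1.13 to 1.27 in the other groups of base cells. Of the rule's receptors, P2ry12, which senses ADP, was at 1498 and 997 CPM, Siglech, a sialic acid receptor, at 648 and 444 CPM, and Tmem119 at 498 and 398 CPM. P2ry12 had a thinned median of 6 UMIs in RA and 3 in OIR. The cystatin Cst3 was at 20190 and 12566 CPM (log2 -0.68, -0.72 to -0.65), Fcrls, an Fc receptor-like protein, at 852 and 1580 CPM (log2 0.89, 0.77 to 1.01) and Adgre1, the F4/80 antigen used in the sort, at 205 and 401 CPM (log2 0.97, 0.72 to 1.22).

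Cytokine and NF-κB genes outside the rule were split. Of 29 compared, 6 were higher by 2-fold or more (20.7%, against 5.72% of all genes) and 0 lower, with a median log2 ratio of -0.01 and a sum of 15998 CPM in RA and 17901 CPM in OIR (log2 0.16, 0.13 to 0.19), so that sum and median differed in sign. With the limits at pooled medians the sum was at log2 0.0010, and with thinned members at 0.31. Of the 6 higher genes, Tnfsf9 and Il1rn were below 25 CPM in RA and passed the minimum through OIR, so they could not count as lower. Beside Tnfsf9 and Csf1, Ptgs2, which makes prostaglandins, was at 35.9 and 104 CPM (log2 1.54, 0.99 to 2.11), in 11 and 13 cells, but at log2 -0.21 with pooled medians, and Il1rn, the interleukin-1 receptor antagonist, at 24.6 and 68.6 CPM (log2 1.48, 0.79 to 2.17). Below 0 lay Rel, at 487 and 253 CPM (log2 -0.95, -1.20 to -0.70), and Nfkb1, at 343 and 225 CPM, both subunits of NF-κB. Of 16 chemokine and receptor genes, 3 were higher (18.8%) and 2 lower (12.5%, against 6.43% of all genes), with a median of -0.05. C5ar1, the complement C5a receptor, was at 255 and 593 CPM, and Cxcl16 at 83.7 and 186 CPM, while C5ar2, the second C5a receptor, was at 70.2 and 32.8 CPM. Ccl2, which draws monocytes, was at 1034 and 1850 CPM, and Ccl4 at 6888 and 4872 CPM.

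Immediate early genes other than Ier5 had a median of -0.05 over 30 genes, with 0 higher and 2 lower by 2-fold or more (6.67%, near the 6.43% of all genes). Their sum was 34724 CPM in RA and 30192 CPM in OIR (log2 -0.20, -0.23 to -0.18). The lower ones were the transcription factors Egr1, at 2738 and 1340 CPM (log2 -1.03, -1.14 to -0.92), and Egr3, at 274 and 103 CPM (log2 -1.41, -1.81 to -1.03). Junb, the list's most abundant gene, was at 4859 and 4746 CPM. Heat shock genes had a median of 0.30 over 9 genes, with 0 past 2-fold in either direction, Hspa8 being at 1477 and 2188 CPM and Hsp90aa1 at 432 and 251 CPM, though at log2 0.029 in the lowest tertile of each score. In the integrated stress response, 3 of 11 genes were higher by 2-fold or more (27.3%, against 5.72% of all genes) and 1 lower (9.09%), with a median of 0.38. Cebpb, a transcription factor, was at 722 and 1552 CPM (log2 1.10, 0.97 to 1.23) and Phgdh, of serine synthesis, at 73.2 and 156 CPM, while the regulator Atf4 itself was at 247 and 167 CPM (log2 -0.57, -0.90 to -0.25).

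**Figure D4:**
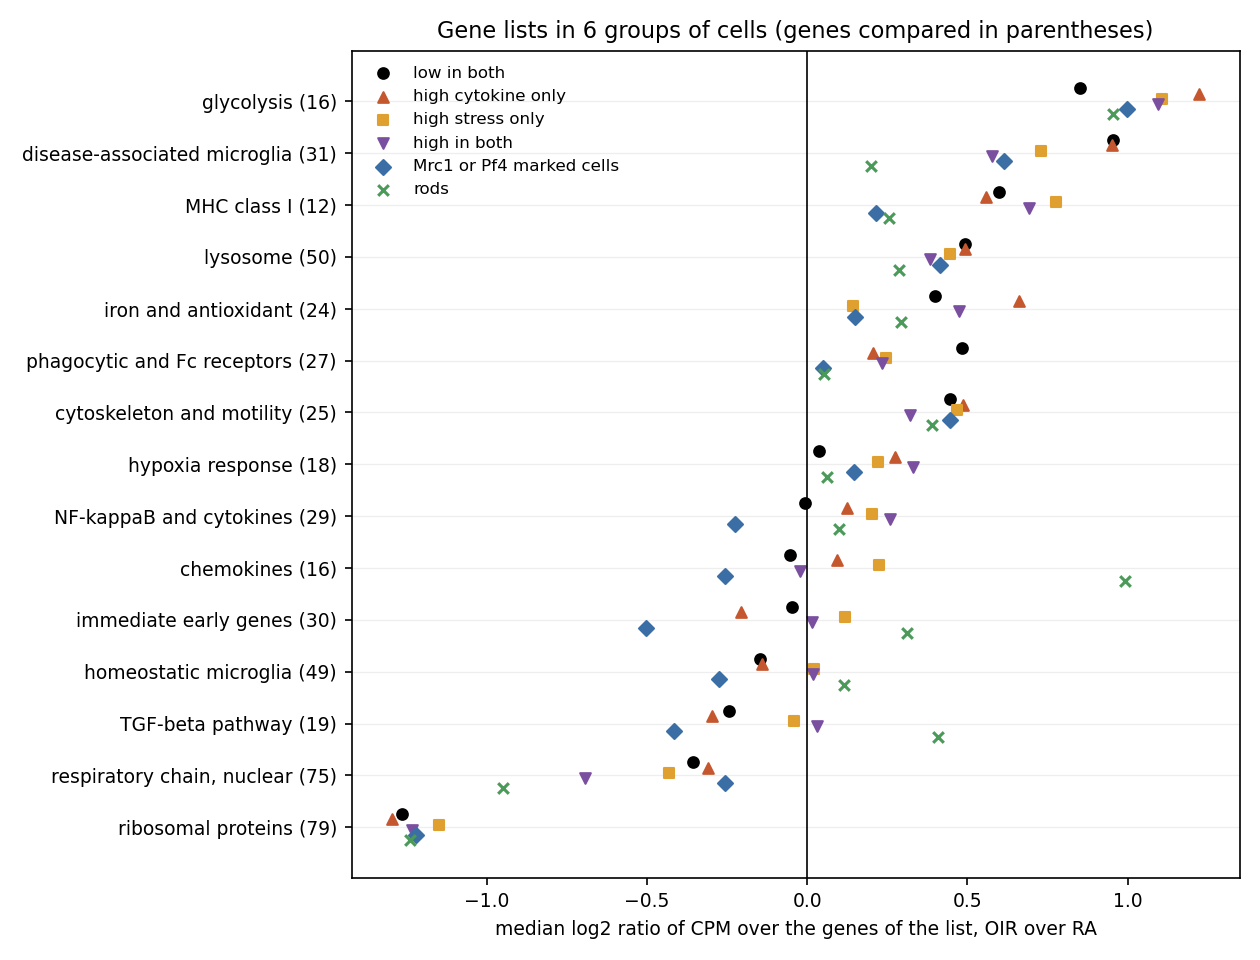
Median log2 ratio of CPM, OIR over RA (x axis), over the genes of 15 lists, with the number of genes compared in members in parentheses, in members, the 3 other groups of base cells, cells marked by Mrc1 or Pf4, and rods. Glycolysis lies between 0.85 and 1.22 and ribosomal proteins between -1.30 and -1.15 in all 6 groups, while the disease-associated list lies at 0.96 in members and 0.20 in rods. Rods hold few UMIs of myeloid genes, so their values for those lists rest on low counts.

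Cytoskeleton and motility genes had a median of 0.44 over 25 genes, with 5 higher by 2-fold or more (Vim, Anxa2, Anxa5, Cotl1 and Capg) and 1 lower (Tmsb10). The 5 were 20% of the list, against 5.72% of all genes, and the lower one was 4%, against 6.43%. Vim here, and Igf1 among the growth factors below, were under 25 CPM in RA and passed the minimum through OIR, so they could not count as lower. The median longest transcript of the list was 1647 bases, and all genes of 1000 to under 2000 bases had a median of 0.42 with 12.7% higher, so the list median was near that of genes of like length. Lipid handling had a median of 0.29 over 18 genes with 4 higher (22.2%), among them Plin2 and Plin3, secreted growth factors a median of 0.51 over 10 genes with 3 higher (30%), among them Osm at 117 and 253 CPM, and cell cycle genes a median of 0.37 over 14 genes with 2 higher (14.3%), Stmn1 and Mcm3. Of 14 interferon response genes 1 was higher (7.14%), Ifi27l2a, with 67 and 96 UMIs, and the median was 0.23. Of 19 genes of the TGF-β pathway, which sustains the microglial program, 1 was higher by 2-fold or more (5.26%), Nrros, which anchors latent TGF-β on microglia, at 68.0 and 158 CPM (log2 1.21, 0.79 to 1.64). The receptor Tgfbr1 was at 540 and 318 CPM (log2 -0.76, -0.99 to -0.54), and the median was -0.24. The shares of higher genes in the interferon and TGF-β lists were near the 5.72% of all genes. Purine receptors (6 genes, median -0.11) and sterol synthesis (4 genes, median -0.34) had 0 past 2-fold in either direction. Of 4 MHC class II genes 1 was lower (25%, against 6.43% of all genes). It was Cd74, with 264 of its 360 RA UMIs in 1 cell and a log2 ratio that went from -1.79 to -0.07 without the highest cells. Of 3 nuclear noncoding RNAs other than Malat1, 1 was lower by 2-fold or more (33.3%, against 6.43% of all genes), Snhg12, at 47.1 and 20.3 CPM. Snhg12 was under 25 CPM in OIR and passed the minimum through RA, so it could not count as higher. Neat1 was at 1283 and 1457 CPM, though at log2 -0.16 in the lowest tertile of each score.

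Against the other base cells of their own library, the members' summed levels were compared list by list. Homeostatic genes differed by log2 0.0037 in RA and 0.0045 in OIR, and disease-associated genes by 0.0026 and -0.0023. NF-κB and cytokine genes were lower in members by log2 0.31 in RA and 0.43 in OIR, immediate early genes by 0.35 and 0.40 and chemokines by 0.33 and 0.30, in cells chosen for low values of Il1b, Tnf, Ccrl2 and Ier5. Nuclear genes of the respiratory chain were higher in members by log2 0.22 in RA and 0.30 in OIR. Cytoskeletal genes were higher by 0.07 and 0.25, and hypoxia response genes were at -0.01 in RA and -0.32 in OIR. Interferon response genes were at -0.02 and -0.30, TGF-β pathway genes at -0.19 and -0.29 and sterol synthesis genes at -0.31 and -0.34. MHC class II genes were at 0.50 in RA and -0.30 in OIR, and rod genes at 1.14 and -0.54, with the single RA cells named above among the members. Lens genes were at 0.46 and 0.54, monocyte genes at 0.43 and 0.16 and ribosomal protein genes at 0.18 and 0.17.

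Members varied among themselves, and the spread of single genes differed between the libraries. Over 931 genes with a thinned mean of at least 0.5 UMIs in both libraries, the median ratio of variance to mean was 1.25 in RA and 1.20 in OIR. Apoe ranged from 0 to 361 UMIs per thinned cell in RA (median 82.5) and from 13 to 228 in OIR (median 72). Ccl3, a chemokine that draws myeloid and T cells, ranged from 0 to 89 in RA (median 15) and from 0 to 104 in OIR (median 13.5), and Ccl4 from 0 to 118 (median 15.5) and from 0 to 84 (median 15.5). Hmox1, heme oxygenase, had a median of 1.5 and a maximum of 23 in RA and a median of 1 and a maximum of 31 in OIR. Tmsb4x had the highest ratio of variance to mean in OIR, at 31.4 against 14.1 in RA, and Ccl4 the highest in RA, at 32.5 against 17.3 in OIR. Cells below both limits thus still spanned a wide range of chemokine counts in each library.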

How the data were processed

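The authors sorted, sequenced and aligned the cells with Cell Ranger 3.1.0 (per the file headers) to mm10 and analysed them with Seurat 4.0 (submitters' processing notes). The deposited files hold raw UMI counts per gene and barcode, and their barcodes number as many as the cells the study states. From these counts, UMIs were summed over members of each library and divided by their total (CPM), and log2 ratios of genes with a mean of at least 25 CPM were given with exact conditional intervals at 95%, which were checked on simulated data. A library with 0 UMIs was set to 3 UMIs, and no ratio of a named gene in members was given where both had 3 or fewer. The members, the 28 gene lists and the 12 marker lists were chosen with earlier results of these data known. 4 of 874 listed symbols were not used here because they did not match. Named genes were the 12 with the interval furthest from 0 in each direction (again without each gene's highest cell), up to 4 per list and direction, each list's most abundant gene and the rule genes. Ribosomal protein and mitochondrial genes were counted and not named. Alternatives that left out the highest cell of each library or short transcripts were added after seeing the data. Some genes, and 1 alternative choice of base cells, are not reported here. Doublets were not called; the study's own filter, the 2% of cells with the most genes, was an alternative. Rods had at least 2% of UMIs in 5 rod genes. Cells marked by Mrc1 or Pf4 had at least 5 UMIs of both genes together, and those marked by Ccr2, Ly6c2 or Plac8 at least 3. The mark by Ccr2, Ly6c2 or Plac8 did not exclude base cells. Transcript lengths came from GENCODE vM1 by gene ID, and promoters from RefSeq. Calculations used Python 3.11.15, numpy 2.4.6, scipy 1.17.1, pandas 2.3.3 and matplotlib 3.10.9.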

Additional observations from a re-analysis of the deposited data

Results flagged for a closer look

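Summed ratios of OIR over RA had opposite signs in members and in another group of base cells for 4 lists, with both counting intervals off 0. These differences were not tested, since each condition is 1 library. MHC class II genes stood at log2 -0.23 in members against 0.40 in cells high in the cytokine score only, 0.72 in those high in the stress score only and 0.66 in those high in both. This sign rested on single cells, with 264 of the 360 RA UMIs of Cd74 in 1 member. Without each gene's highest cells, Cd74 had 96 UMIs in RA and 42 in OIR and H2-Ab1 27 and 29. The list's median then went from 0.07 to 0.45. Chemokine genes stood at -0.19 in members and 0.14 in cells high in the stress score only. Lipid handling genes stood at -0.08 in members, 0.038 in cells high in the cytokine score only and 0.31 in those high in both, with Apoe the most abundant gene of the list. Rod genes stood at -1.73 in members, 0.58 in cells high in the stress score only and 0.57 in those high in both, with 1 RA member holding 1327 of 1788 rod UMIs.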

How the results depend on the processing

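With 1 library per condition no library could be left out, and no interval covers the spread between animals. No paired analysis was possible because each condition is 1 library and no test was made. The log2 sums of the glycolysis, homeostatic, disease-associated, NF-κB and cytokine, and immediate early lists lay on the same side of 0 under all 16 alternatives, but for 2 lists the counting interval then included 0. This held for the homeostatic list with totals without ribosomal protein and mitochondrial genes (-0.0059 to 0.023) and in the lowest tertile of each score (-0.0026 to 0.045), and for the NF-κB and cytokine list with pooled medians (-0.038 to 0.040) and in the lowest tertile (-0.0057 to 0.12). A single gene's ratio cannot differ under a minimum of expression, nor when the 2% of cells with the most genes are left out, which left the same members. Under the other 13 alternatives, of 2684 values of 211 named genes, 2324 stayed within the counting interval, 339 moved outside it in the same direction or without a called sign, and 21, of 13 genes, turned in sign; the cause was not tested. Another 46 values were not taken because the transcript was under 1000 bases or had no annotated length, 2 because the mean over cells was 0 in 1 library (Fn1 and Gngt1), and 11 for too few UMIs, among them Rp1, Gngt1 and Rcvrn in the lowest tertile. Values outside the interval, or counts past 1.5 times, were as follows, in log2 units for sums. Centring on the median of all genes (0.06) gave list sums of glycolysis 0.97, homeostatic 0.041, disease-associated 0.42, NF-κB and cytokine 0.10 and immediate early -0.26. The mean over cells gave list sums of disease-associated 0.44, NF-κB and cytokine 0.28 and immediate early -0.14, with the sign turned for Nfkbia (0.056). Thinned members gave 416 genes higher and list sums of glycolysis 0.95, disease-associated 0.42, NF-κB and cytokine 0.31 and immediate early -0.16, with the sign turned for Nfkbia (0.12) and Nr4a3 (-0.20). Totals without ribosomal protein and mitochondrial genes gave list sums of glycolysis 0.94, homeostatic 0.0084, disease-associated 0.39, NF-κB and cytokine 0.068 and immediate early -0.30. A minimum of 2000 UMIs gave list sums of homeostatic 0.085. A minimum of 8000 UMIs gave 38 OIR members and list sums of glycolysis 1.16, homeostatic 0.048, disease-associated 0.54, NF-κB and cytokine 0.043 and immediate early -0.27, with the sign turned for Lyz1 (-0.69). Medians pooled over both libraries gave list sums of homeostatic 0.089, disease-associated 0.53, NF-κB and cytokine 0.0010 and immediate early -0.17, with the sign turned for Ifitm3 (0.43), Lyz1 (-0.24), Nr4a3 (-0.12), Ptgs2 (-0.21) and Tnf (-0.38). The lowest tertile of each score gave 39 RA members, 24 OIR members, 501 genes higher and 516 genes lower and list sums of glycolysis 1.18, homeostatic 0.021, disease-associated 0.43, NF-κB and cytokine 0.055 and immediate early -0.16, with the sign turned for Ccl12 (0.065), Cdkn1a (0.38), Hsp90aa1 (0.029), Ifi204 (-0.24) and Neat1 (-0.16). All base cells gave 699 RA members, 285 OIR members, 129 genes higher and 191 genes lower and list sums of NF-κB and cytokine 0.25 and immediate early -0.18, with the sign turned for Cd74 (0.12), Cdkn1a (0.048), Cxcl10 (0.24), Ifitm3 (0.31), Nfkbia (0.30) and Nr4a3 (-0.23). Leaving out members with 3 or more rod UMIs gave list sums of glycolysis 1.12, homeostatic 0.084, NF-κB and cytokine 0.12 and immediate early -0.24, with the sign turned for Cd74 (0.029). A minimum of 100 CPM gave 86 genes higher and 116 genes lower. A minimum of 1 UMI in both libraries gave 812 genes higher and 1227 genes lower. Leaving out the highest cell of each library gave list sums of disease-associated 0.46. Leaving out transcripts under 1000 bases gave 178 genes higher and list sums of glycolysis 0.89, homeostatic 0.18, disease-associated 0.21, NF-κB and cytokine 0.073 and immediate early -0.34. A limit of 10% mitochondrial UMIs left these sums and counts inside those limits.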

Other observations

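Both libraries held cells of both sexes. Among RA members 30 had UMIs of Xist and of no Y-linked gene listed, 71 of a Y-linked gene and not Xist, 3 of both and 14 of neither, and among OIR members the counts were 18, 28, 6 and 6. Of 3 sex-linked transcripts compared, 1 was lower in OIR by 2-fold or more (33.3%, against 6.43% of all genes). It was Xist, at 394 and 182 CPM, with UMIs in 28.0% of RA and 41.4% of OIR members. Over all barcodes Xist was at 493 CPM in RA and 150 CPM in OIR, with UMIs in 30.8% and 19.9% of barcodes. Ddx3y was at 94.1 and 71.7 CPM in members and Eif2s3y at 38.1 and 60.8 CPM.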
